A study of Homo sapiens with 6 samples.

Results

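Cytoplasmic ribosomal proteins are the protein parts of the ribosome that translates nuclear-encoded mRNAs. Members were chosen by symbol: names in RPL or RPS followed by a number and at most one letter (A, L or X), plus the stalk proteins RPLP0, RPLP1 and RPLP2, and RPSA. Of the 19775 genes that had a probe set to themselves, 56 were members, 35 of the large subunit (RPL) and 21 of the small subunit (RPS). They were read by 117 of the 41091 probe sets that name a single gene. The reference gene table (GRCh38.p14) lists 81 protein-coding genes that fit the rule. For 25 of these no probe set names the gene alone: 15 occur only on probe sets shared with other genes, and 10 were not analysed here.

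RNA came from NTERA2/D1, an established human embryonal carcinoma line derived from a testicular teratocarcinoma. All cells were transfected 24 h after plating and kept for 72 h. The control group received a nonspecific scrambled siRNA (3 arrays), and the knockdown group received an siRNA for human VAMP7 (3 arrays), a vesicle SNARE of the late endosome. The titles call the arrays of a group biological replicates, but the label texts disagree: in the description field each of the 3 knockdown samples is replicate 1, whereas the titles, used here, run from 1 to 3. The labels do not state separate cultures, so p-values here measure only how far these samples vary, and that variation may be technical. The cells were not sorted, and fewer cells of a type and less RNA per cell cannot be told apart.

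Each ribosome holds one copy of most of these proteins, and cells keep their synthesis in balance. Their mRNAs are among the most abundant in growing cells. Most begin with a cytosine followed by a run of pyrimidines, the 5′ terminal oligopyrimidine (TOP) motif, through which mTORC1 and the RNA-binding protein LARP1 control how strongly the mRNAs are translated. A change in translation need not appear in the amount of mRNA, which is what an array measures.

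The annotated start sites are shown because this shared opening sets most members apart from other genes by sequence. Each line gives 30 bases from RefSeq (GRCh38.p14), 15 before the annotated start and 15 from it onwards, with the pyrimidine run that begins at the start in capitals. The first 5 genes are those with the brightest probe sets, and the others are members described further on, with and without the run.
RPS23 (chr5:82278340-82278369, minus strand): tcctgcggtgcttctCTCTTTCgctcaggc
RPL37A (chr2:216498829-216498858, plus strand): gcaccgcgtctcttcCTTTCTgggctcgga
RPS19 (chr19:41860240-41860269, plus strand): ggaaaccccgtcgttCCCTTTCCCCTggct
RPS6 (chr9:19380222-19380251, minus strand): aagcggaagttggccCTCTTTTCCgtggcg
RPL31 (chr2:101002274-101002303, plus strand): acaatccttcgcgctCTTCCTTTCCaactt
RPLP2 (chr11:809952-809981, plus strand): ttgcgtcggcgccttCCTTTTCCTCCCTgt
RPL27A (chr11:8682777-8682806, plus strand): ttggcgaaggccttcCTTTTTCgtctgggc
RPL36A (chrX:101390996-101391025, plus strand): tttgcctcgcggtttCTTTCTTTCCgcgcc
RPL36 (chr19:5690280-5690309, plus strand): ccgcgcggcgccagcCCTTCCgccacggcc
RPL27 (chr17:42998404-42998433, plus strand): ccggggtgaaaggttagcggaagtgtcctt
RPS27L (chr15:63157463-63157492, minus strand): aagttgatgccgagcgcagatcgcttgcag
RPL10L (chr14:46651767-46651796, minus strand): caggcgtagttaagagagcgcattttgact

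Of the 56 members, 48 matched an entry of the RefSeq promoter table. A C at the annotated start followed only by C or T for a run of at least 5 bases was present in 34 of the 48 (70.8%), against 1404 of all 27305 genes with an entry (5.14%). The median run was 7 bases in the members and 0 over all genes, and where a gene had several annotated starts the longest run was taken. A hexamer and a heptamer were searched on both strands of the 300 bases from 250 before the start to 50 after it. CTTTCC, which can lie inside the pyrimidine run itself, occurred in 22 of 48 members (45.8%) and in 30.2% of all genes. CTTCCGG, the core of the ETS family motif, occurred in 18 of 48 members (37.5%) and in 12.2% of all genes. These are matches of letters in a window and were not tested as binding sites.

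The siRNA reached its target. VAMP7 read 2487, 2617 and 2741 intensity units on the control arrays and 136.8, 175.4 and 148.6 on the knockdown arrays, 5.87% of the control mean (limma, Benjamini-Hochberg adjusted p = 8.96e-05). It was the only gene of the 19775 called at an adjusted p under 0.05 (0.00506%). Of 12 measured pluripotent markers, 11 lay at or above the median gene (224.0 units), and ZFP42 did not. The 7 measured leukocyte markers were all below it, as were 6 of 8 fibroblast markers, 3 of 6 endothelial markers and 3 of 7 neuronal markers. Over those lists the mean log2 level per array ran from 12.25 to 12.40 for pluripotent, 6.21 to 6.77 for leukocyte, 7.72 to 7.95 for fibroblast, 8.29 to 8.77 for endothelial and 8.96 to 9.08 for neuronal markers. Leukocyte and endothelial markers were highest on knockdown replicate 1, and the part of these lists in the results for ribosomal proteins was not tested.

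Ribosomal protein transcripts filled the top of the intensity scale. Of the 56 members, 49 had a mean intensity of at least 20000 units, a level reached by 175 genes in all, and they made up 46 of the 88 genes at or above 30000, 29 of the 46 at or above 40000 and 10 of the 12 at or above 50000. The 49 lay close together, from 24736 for RPL36 to 58169 for RPS23, a 2.35-fold span with a median of 42100. Among the 100 brightest probe sets of each array, 28 to 34 named a member alone and 30 to 32 more named a member together with another gene. Signals of different probe sets do not rank RNA abundance, so these figures say where the probe sets lie on the scale and not which transcript is commonest.

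The files carry no saturation flag, so nearness to the limit can be given only as a ratio. The brightest probe set of an array read 50380, 64405 and 61716 on control replicates 1 to 3 and 84586, 54257 and 54425 on knockdown replicates 1 to 3. In each case it named a ribosomal protein gene: RPS23 on control replicate 2, RPL37A on knockdown replicate 1, and RPL36A with its readthrough transcript RPL36A-HNRNPH2 on the other 4. The median of the 52 members at or above the median gene was 35613, 44680 and 42458 in control and 49997, 38540 and 37893 in knockdown. That is 59.1% to 71.0% of the array's brightest probe set. The upper end of the scale was therefore not the same number on every array, and the highest and lowest arrays were both numbered 1. Probe sets that name a member alone carried 5.34% to 6.78% of an array's summed signal, and 9.19% to 11.8% with the shared probe sets added.

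**Figure D1:**
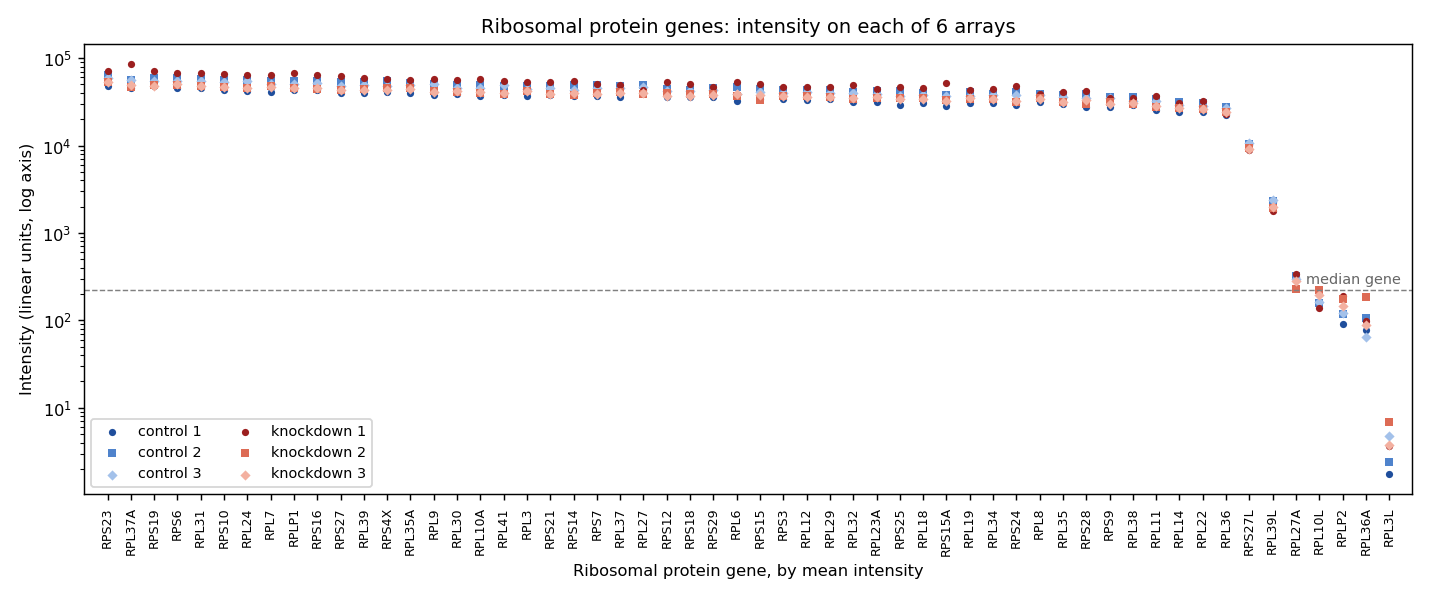
Intensity of each of the 56 ribosomal protein genes (linear units on a log axis, ordered by mean) on the 3 control arrays (blue) and 3 knockdown arrays (red), 1 point per array; the dashed line is the median gene at 224.0 units. 49 genes sit together between 24736 and 58169 on average, and 7 lie apart below 10000.

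The 5 members with the brightest probe sets come from both subunits. RPS23, which lies at the decoding centre, read 48115, 64405 and 59964 in control and 70948, 52833 and 52751 in knockdown. RPL37A, a zinc-binding protein of the large subunit, read 46037, 56787 and 55583 in control and 84586, 47269 and 49475 in knockdown. RPS19, the gene most often mutated in Diamond-Blackfan anaemia, read 48061, 59338 and 54669 in control and 71998, 49026 and 48098 in knockdown. In all 3 genes knockdown replicate 1 was the highest array, and the other knockdown arrays lay within the control range.

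RPS6, the small-subunit protein phosphorylated by S6 kinases, read 45095, 58487 and 55353 in control and 67127, 48888 and 50714 in knockdown. RPL31, which sits near the exit of the peptide tunnel, read 45386, 57329 and 54249 in control and 67198, 47367 and 47776 in knockdown. The order of the arrays was nearly the same in each of the 5: knockdown replicate 1 highest, then control replicates 2 and 3. Their log2 fold changes (knockdown over control, on the log2(intensity + 50) scale) were 0.03 ± 0.17 for RPS23, 0.15 ± 0.23 for RPL37A, 0.04 ± 0.18 for RPS19, 0.06 ± 0.16 for RPS6 and 0.04 ± 0.17 for RPL31 (SE from limma, n = 3 each). None was larger than its error.

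The remaining 7 members were dimmer. RPS27L averaged 9768 units, RPL39L 2111 and RPL27A 295.8, while RPL10L (172.5), RPLP2 (140.0), RPL36A (103.9) and RPL3L (3.89) were below the median gene. RPL39L, RPL10L, RPL3L and RPS27L are paralogs with restricted or inducible expression. RPL27A, RPLP2 and RPL36A encode core proteins of every ribosome, and for each of them another, bright probe set names the gene beside a snoRNA or a readthrough transcript.

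The bright members moved up and down together from array to array. Each member's log2 value was set against its own mean over the 6 arrays, and the median of these deviations over the 52 members at or above the median gene was -0.24, 0.14 and 0.04 on control replicates 1 to 3 and 0.29, -0.12 and -0.12 on knockdown replicates 1 to 3. On the linear scale these medians correspond to 0.847, 1.10 and 1.03 times the own mean in control and 1.23, 0.920 and 0.923 times in knockdown. Knockdown replicate 1 was the highest array for 44 of the 52, and control replicate 1 was the lowest for 47. All 52 lay above their own mean on control replicate 2, and none did on knockdown replicates 2 and 3. The arrays that differed most were thus 1 of each group, and neither group was high or low throughout.

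**Figure D2:**
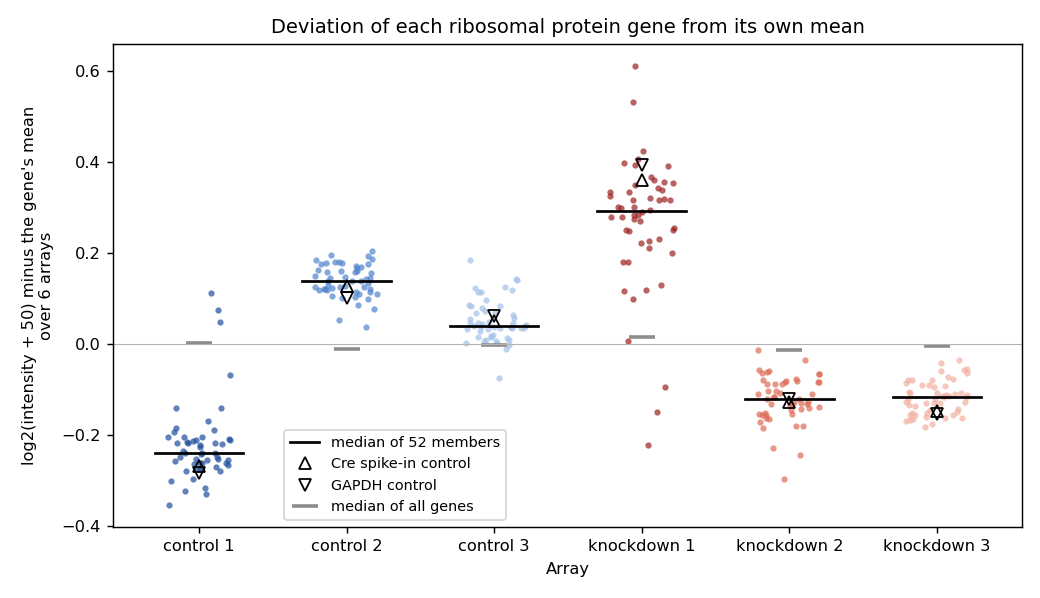
Deviation of each of 52 ribosomal protein genes from its own mean over the 6 arrays (log2 units, 1 point per gene), by array; bars give the median of the 52 and of all genes, and triangles the Cre spike-in and GAPDH control probe sets. The medians run from -0.24 on control replicate 1 to 0.29 on knockdown replicate 1, and both controls lie beside them on each array, while the median of all genes stays near 0.

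A single value per array carried most of the spread. The mean deviation per array held 86.2% of the within-group sum of squares of the 52 members, against 0.214% over all 19775 genes. All arrays have the same trimmed mean, which limits how far all genes can move together. The median within-group SD of a member was 0.220 on the log2 scale, and 0.050 once the median member of each array had been subtracted. Both subunits showed the same pattern. The 29 bright RPL genes had median deviations of -0.25, 0.14 and 0.04 in control and 0.28, -0.12 and -0.11 in knockdown. The 20 bright RPS genes had -0.24, 0.15 and 0.04 in control and 0.32, -0.13 and -0.13 in knockdown.

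Other genes of the same brightness moved the same way. The 126 genes outside the list at or above 20000 units had median deviations of -0.20, 0.15 and 0.04 in control and 0.18, -0.07 and -0.09 in knockdown, and a common share of 72.5%. The 14 that were as bright as the median member had -0.27, 0.12 and 0.01 in control and 0.38, -0.13 and -0.13 in knockdown, with a common share of 96.2%. Among genes outside the list the spread between arrays grew with intensity. In the 5003 genes from 1000 to 10000 units the median deviation on knockdown replicate 1 was 0.004 and on control replicate 1 also 0.004. In the 360 genes from 10000 to 20000 these values were 0.01 and -0.12, in the 84 genes from 20000 to 30000 they were 0.10 and -0.18, and in the 25 genes from 30000 to 40000 they were 0.24 and -0.22. Only 15 genes between 40000 and 50000 units, and 2 from 50000 upwards, were left outside the list. They had 0.36 on knockdown replicate 1 in both classes and -0.26 and -0.27 on control replicate 1. The members went through similar steps, with 0.13, 0.27, 0.30 and 0.35 on knockdown replicate 1 in the classes from 20000 (3 genes), 30000 (17 genes), 40000 (19 genes) and 50000 units upwards (10 genes).

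**Figure D3:**
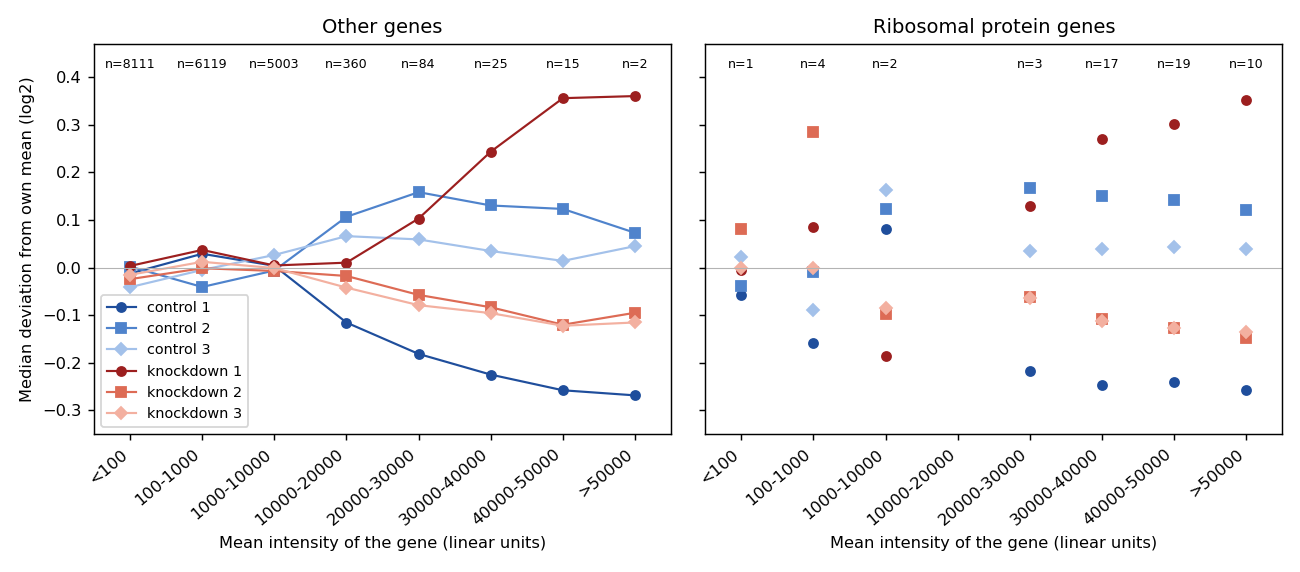
Median deviation from the own mean (log2 units) on each array by class of mean intensity (linear units), for genes outside the list (left) and ribosomal protein genes (right), with the number of genes in each class above it. For other genes the 6 arrays lie together below 10000 units and spread apart above it; the 7 ribosomal protein genes below 10000 units spread apart too, in another order of arrays. The medians run from -0.22 to 0.24 for other genes and -0.25 to 0.27 for ribosomal protein genes between 30000 and 40000.

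The bright array controls showed the same order, including a transcript that the cells do not make, and the dim spike-ins did not. Cre, a phage transcript added to the hybridisation mix, averaged 49662 units and read 40826, 53723 and 50911 in control and 63122, 44985 and 44405 in knockdown. Its deviations were -0.27, 0.13 and 0.05 in control and 0.36, -0.13 and -0.15 in knockdown. The dimmer BioD spike-in, at 17584 units, had -0.30, 0.14 and -0.03 in control and 0.40, -0.08 and -0.13 in knockdown. BioC, at 3213 units, had -0.11, 0.02 and -0.15 in control and 0.44, -0.10 and -0.10 in knockdown. BioB, the dimmest at 1006 units, had -0.08, -0.05 and -0.03 in control and 0.26, 0.07 and -0.16 in knockdown. All 4 spike-ins were highest on knockdown replicate 1, BioC and BioB too, though the median of other genes between 1000 and 10000 units hardly moved between arrays, and their lowest arrays were control replicate 3 and knockdown replicate 3. The GAPDH 3′ control probe set (46889 units) had -0.28, 0.10 and 0.06 in control and 0.39, -0.12 and -0.15 in knockdown. The ratio of 3′ to 5′ signal, a measure of RNA integrity and labelling, was 0.941 to 0.996 for GAPDH on the 6 arrays and 2.27 to 3.43 for ACTB, with the highest ACTB value on control replicate 3. The part of these differences between arrays in the members' values was not tested beyond setting them side by side.

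No ribosomal protein gene passed the test of knockdown against control. Limma on all 19775 genes called 0 of the 56 members, and the smallest Benjamini-Hochberg adjusted p among them was 0.622, for RPLP2. At an unadjusted p under 0.05 there was 1 member higher in knockdown (RPLP2), where 3.63% of all genes were, and 1 lower (RPL39L), where 3.03% were. All 3 knockdown arrays lay above all 3 control arrays for 1 member (RPLP2), against 6.68% of all genes, and below them for 2 (RPL39L and RPS27L), against 6.29%. These shares of the members, at most 2 of 56, were no higher than the background.

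The signs leaned upwards on the deposited scale. Of the 56 members, 44 (78.6%) had a log2 fold change above 0, against 50.8% of all genes and 54.8% of the 126 other genes at or above 20000 units. Among the 14 other genes as bright as the median member, 13 (92.9%) were above 0, with a median of 0.08. The lean was therefore not particular to the members. The median of the members was 0.03 and that of all genes 0.003. The members' count turned on single arrays and on the scaling. It was 7.14% without knockdown replicate 1 and 10.7% without control replicate 1, and it was 35.7% after quantile normalization and 46.4% with each array centred on its median gene. Leaving out any of the other 4 arrays gave 89.3% to 91.1%. The median log2 fold change followed, from -0.10 without knockdown replicate 1 to 0.11.

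The 49 bright members had log2 fold changes between -0.16 (RPL27) and 0.18 (RPS15A), and 40 of them were above 0. Their standard errors were 0.107 to 0.232 with a median of 0.161, larger than the median of 0.114 over all genes at or above the median gene. The 95% interval of a bright member reached 0.38 to either side at the median, and over the 49 the bounds ran from -0.43 to 0.70, so changes smaller than this half-width were not resolvable for a typical bright member. Large-subunit genes had a median of 0.03, with 24 of 29 above 0, and small-subunit genes 0.04, with 16 of 20 above 0. Limma's adjusted p-values in the 49 were 0.827 to 0.999.

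Without both arrays numbered 1, a choice made after these arrays were seen to stand apart, the direction turned. All 49 bright members were then lower in knockdown, with a median log2 fold change of -0.21, and 48 of the 49 had both remaining knockdown arrays below both control arrays, a pattern found in 19.8% of all genes. Of the 126 other genes at or above 20000 units, 124 were lower too and 103 did not overlap, with a median of -0.17. The Cre spike-in showed the same, 53723 and 50911 in control against 44985 and 44405 in knockdown. With only 2 arrays a group, none of the members was called by limma.

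Against this common movement, RPL27 and RPL36 stood out among the bright members. RPL27, a large-subunit protein mutated in some families with Diamond-Blackfan anaemia, read 40879, 48754 and 46715 in control and 43101, 39146 and 39541 in knockdown. Its groups overlapped, and its log2 fold change of -0.16 ± 0.11 (SE, n = 3 each) did not pass limma's test, with an adjusted p of 0.827. On knockdown replicate 1, 49 of 52 members were above their own mean. RPL27 was among these, but only just, at 0.008, and it lay 0.29 below the median member. Its annotated start, printed above, is an A without a pyrimidine run.

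RPL36, the dimmest of the 49, read 22366, 27700 and 26729 in control and 23109, 24453 and 24060 in knockdown. Its log2 fold change was -0.09 ± 0.11 (SE, n = 3 each), and on knockdown replicate 1 it lay 0.39 below the median member. Its own deviation on that array was -0.09, where the 84 other genes from 20000 to 30000 units had a median of 0.10. The median member is brighter than RPL36, and the part of brightness in the 0.39 was not tested. The correlation of RPL36's 6 deviations with the median of the other members was 0.34, and that of RPL27 was 0.61, against 0.999 for RPS23. These are descriptions over 6 arrays that share the same scaling. RPL36 does begin with a pyrimidine run. Whether the sequence at the start goes with such departures was not tested.

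RPS15A and RPL37A departed in the opposite direction on the same array. RPS15A, a protein of the small-subunit body, read 28283, 37477 and 36999 in control and 52294, 33361 and 32542 in knockdown. Knockdown replicate 1 alone was above the controls, and the log2 fold change of 0.18 ± 0.21 (SE, n = 3 each) became -0.04 without it. RPL37A lay 0.32 above the median member on knockdown replicate 1, and its fold change of 0.15 became -0.12 without that array.

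**Figure D4:**
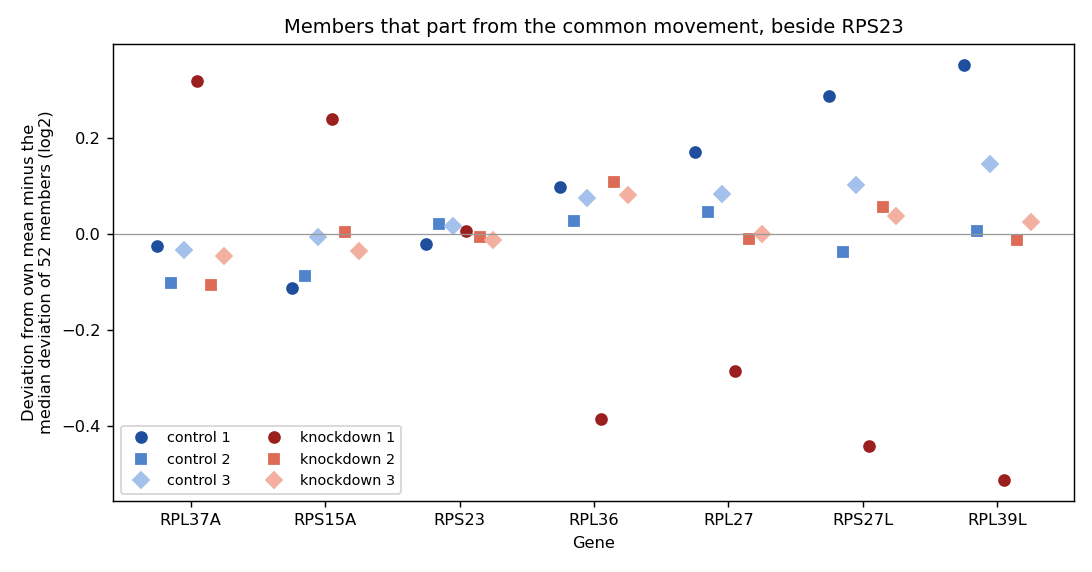
Deviation from the own mean minus the median deviation of 52 ribosomal protein genes on the same array (log2 units), for 7 genes on the 3 control arrays (blue) and 3 knockdown arrays (red). RPS23 stays near 0 on all 6 arrays, while knockdown replicate 1 lies 0.32 above the median member for RPL37A and 0.29 below it for RPL27, and RPS27L and RPL39L are further below. Before the subtraction the deviations of RPS27L and RPL39L on that array were -0.15 and -0.22. Both genes lie between 1000 and 10000 units, where the median deviation of other genes on that array was 0.004.

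The rule brought in several paralogs, set here beside their parents. RPL39L, a copy of the tunnel protein RPL39 found mainly in testis and in some stem and cancer cells, read 2274, 2327 and 2392 in control and 1794, 1911 and 1968 in knockdown. All knockdown arrays were below all control arrays. The log2 fold change was -0.30 ± 0.09 (SE, n = 3 each), unadjusted p = 0.013 and adjusted p = 0.648 by limma with Benjamini-Hochberg adjustment, so it did not pass. Leaving out 1 array at a time kept it between -0.32 and -0.26. RPL39 itself read 39986, 53887 and 49504 in control and 59754, 43878 and 43364 in knockdown, with a log2 fold change of 0.03 ± 0.17.

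RPS27L, a p53-inducible copy of RPS27, read 10079, 10456 and 10753 in control and 8775, 9317 and 9229 in knockdown, again with no overlap. Its log2 fold change was -0.19 ± 0.09 (SE, n = 3 each), with an adjusted p of 0.755 by limma. The gene's dimmer probe sets had log2 fold changes of -0.21 at 384 units and -0.26 at 155 units. RPS27 read 39653, 53885 and 48282 in control and 62884, 43325 and 42715 in knockdown, a log2 fold change of 0.06 ± 0.19. RPL39L and RPS27L are both dimmer than 10000 units, where the median of other genes differed little between arrays but the BioC and BioB spike-ins did not stay level. Their deviations correlated with the median of the bright members at -0.23 and -0.17. Whether a paralog and its parent differed in response was not tested.

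The other paralog members gave little signal. RPL10L, a retrogene copy of RPL10 needed in spermatogenesis, read 157.2, 156.6 and 163.2 in control and 138.4, 223.6 and 195.7 in knockdown, so the groups overlapped. Its log2 fold change was 0.16 ± 0.15, and its deviations correlated at -0.60 with the median of the bright members. RPL3L, the form of RPL3 used in heart and skeletal muscle, read 1.75 to 6.95 units on the 6 arrays, the lowest level of all members. RPL3 read 37176, 48019 and 44417 in control and 53763, 41565 and 41785 in knockdown, a log2 fold change of 0.08 ± 0.15.

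The stalk proteins RPLP1 and RPLP2 bind elongation factors at the GTPase centre and work as dimers. RPLP1 read 42648, 54228 and 50955 in control and 67632, 45287 and 45226 in knockdown, a log2 fold change of 0.08 ± 0.19. RPLP2 had the largest log2 fold change of the members on the log2(intensity + 50) scale. With no offset RPL3L, at a few units of signal, had 0.76 and RPLP2 0.63. The RPLP2 probe set read 91.6, 116.7 and 121.2 in control and 192.3, 173.7 and 144.6 in knockdown. All knockdown arrays were above all control arrays, and the log2 fold change was 0.46 ± 0.13 (SE, n = 3 each; unadjusted p = 0.008 and adjusted p = 0.622 by limma with Benjamini-Hochberg adjustment). A dimmer RPLP2 probe set also did not overlap, with 24.1, 3.80 and 30.0 in control and 35.2, 43.7 and 56.1 in knockdown. The bright probe set that names RPLP2 with the intronic snoRNA SNORA52 read 43478, 54887 and 50191 in control and 61918, 44810 and 46145 in knockdown, a log2 fold change of 0.03. The difference seen on the dim probe sets was not seen on the bright one, and which transcripts the dim ones read was not tested.

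RPL36A and RPL27A were similar cases. RPL36A read 78.0, 107.7 and 64.3 in control and 98.5, 185.8 and 89.3 in knockdown on its own probe set, a log2 fold change of 0.36 ± 0.22 with overlapping groups. The probe set it shares with RPL36A-HNRNPH2 averaged 58628 units and had a log2 fold change of 0.01. RPL27A read 312.1, 319.6 and 293.6 in control and 339.7, 230.0 and 280.0 in knockdown, a log2 fold change of -0.12 ± 0.14. The brighter of the probe sets it shares with SNORA3A averaged 48056 units and had 0.03. The dimmer one, at 271.6 units, had 0.16, opposite in sign to RPL27A's own probe set.

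Shared probe sets widened the view of the ribosome, and the bright ones gave the same picture. Of the 64 that name a ribosomal protein gene with other genes, 56 name a snoRNA, since many snoRNAs lie in introns of these genes, and 47 were at or above 20000 units. Their median deviations were -0.24, 0.13 and 0.04 in control and 0.29, -0.11 and -0.11 in knockdown. Knockdown replicate 1 was highest for 39 of the 47 and control replicate 1 lowest for 45. The log2 fold change was above 0 for 38 of the 47, with a median of 0.04. Dimmer shared probe sets went both ways, some of them without overlap. Those of RPL10 with SNORA70 had 0.41 at 1858 units and 0.69 at 68.7 units. One of RPL23 with SNORA21, at 400.7 units, had -0.26. Of all probe sets naming 1 gene, 7.03% lay above without overlap and 5.47% below. The shared probe sets were not tested with limma.

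Different probe sets of the same gene read very different signals. Of the 117 probe sets, 68 were at or above 20000 units, 14 between 1000 and 20000, and 35 below 1000, of which 16 were below 100. In 26 genes a bright probe set stood beside one under 20000. In the fit over all 41091 probe sets the log2 fold change was above 0 for 82 of the 117, where 52.8% of all probe sets were. The groups did not overlap for 7 probe sets that were higher in knockdown, where 7.03% of all probe sets were, and for 3 that were lower, where 5.47% were. All 10 were among the 49 probe sets under 20000 units, and none among the 68 brighter ones. The shares of all probe sets cover every intensity, and none was counted for those under 20000 units alone. Limma called none of the 117, with a smallest adjusted p of 0.545.

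**Figure D5:**
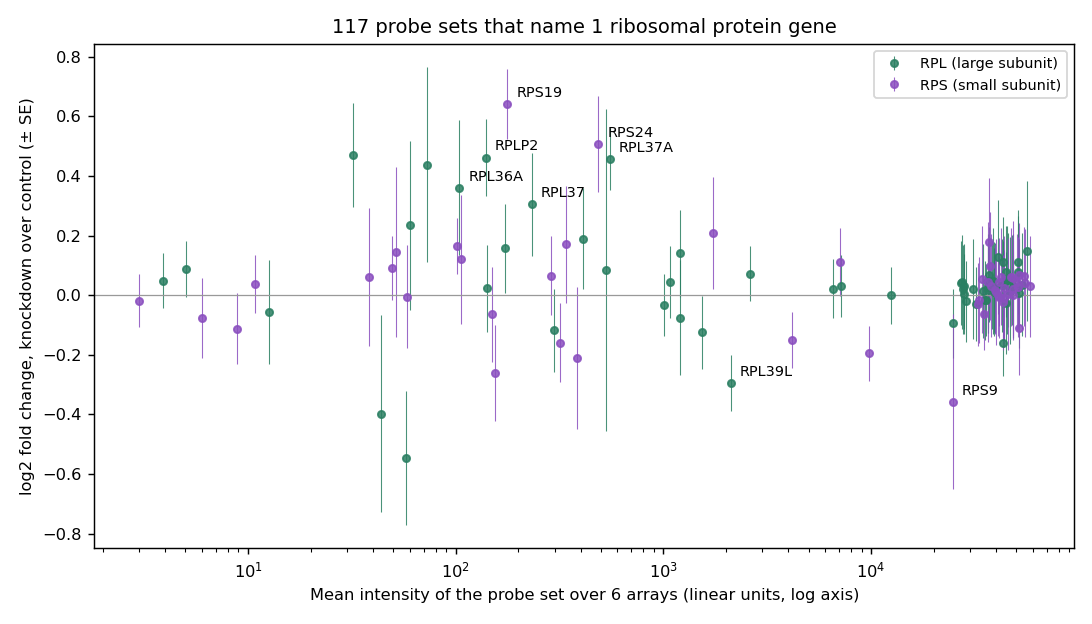
Log2 fold change (knockdown over control, on the log2(intensity + 50) scale) of the 117 probe sets that name 1 ribosomal protein gene against mean intensity (linear units, log axis), with SE bars, for the large subunit (green) and the small subunit (purple). Apart from a probe set of RPS9, those at or above 20000 units lie between -0.16 and 0.18, and probe sets below 1000 units run from -0.55 to 0.64.

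Probe sets of one gene differed by over 0.3 in log2 fold change for RPS24, RPL37A and RPS9, counting only those above the median gene. RPS24, a small-subunit protein with alternatively spliced last exons, had 0.04 ± 0.20 on its bright probe set (29159, 40629 and 37352 in control, 47630, 31602 and 32231 in knockdown). Its second probe set read 393.2, 494.1 and 305.1 in control and 552.5, 592.8 and 584.5 in knockdown, a log2 fold change of 0.51 ± 0.16 without overlap. RPL37A likewise had a dim probe set without overlap, at 455.0, 475.1 and 436.9 in control and 695.3, 656.3 and 584.4 in knockdown, a log2 fold change of 0.46 ± 0.10. In both genes this dim probe set was higher on every knockdown array, and the bright one was higher than the controls on knockdown replicate 1 alone. Another dim RPL37A probe set, at 410.3 units, had overlapping groups. It read 305.7, 475.1 and 365.0 in control and 505.1, 394.7 and 416.0 in knockdown, a log2 fold change of 0.19 ± 0.17.

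RPS9, which takes part in decoding accuracy, showed the reverse. Its brighter probe set read 27573, 36327 and 35264 in control and 35204, 31237 and 30152 in knockdown (log2 fold change -0.03 ± 0.14). A second bright probe set read 21846, 31065 and 29380 in control and 13299, 26827 and 26527 in knockdown (-0.36 ± 0.29). On the second one knockdown replicate 1, the highest array for most members, was the lowest. Among the dim probe sets without overlap was one of RPS19, at 114.1, 119.1 and 151.0 in control and 220.8, 215.1 and 244.3 in knockdown, the largest fold change of the 117 at 0.64 ± 0.12 (adjusted p = 0.545 by limma). The brighter RPS19 probe sets had 0.04 at 55198 units and -0.11 at 51357 units.

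The genes around the ribosome were given the same reading, from lists that hold no member. None of their genes was called by limma. Of 36 translation factors measured (of 39 listed), 27 were above 0 (50.8% of all genes were), with a median log2 fold change of 0.06. This list moved with the same arrays as the members, with a median deviation of 0.15 on knockdown replicate 1, the highest array for 19 of the 36, and -0.13 on control replicate 1. The part of these arrays in its count was not tested. The pair with the smallest p was EIF3C, an initiation factor subunit at 0.43 ± 0.09 but with means of only 25.9 and 52.3 units, and EIF4G1, the initiation scaffold, at 0.17 ± 0.11. Of 5 measured ribosomal genes outside the rule (of 7), 2 were above 0, with a median of -0.04. RPL26L1, a close copy of RPL26, had -0.14 ± 0.09, and RPL7L1, a ribosome assembly factor, had 0.12 ± 0.11.

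Of 32 ribosome assembly genes measured (of 38), 13 were above 0, with a median of -0.03. The lowest p-values belonged to NOP16, a nucleolar protein, at -0.30 ± 0.15, and NOP10, an H/ACA snoRNP subunit, at -0.26 ± 0.13. NOP16 turned to 0.17 when the mean of its probe sets was used. Of 20 genes of rRNA transcription and its control (of 21), 15 were above 0, with a median of 0.09. At an unadjusted p under 0.05 there were 2 higher, TAF1D and RPS6KB2, against 3.63% of all genes, and 1 lower, POLR1C, against 3.03%. RPS6KB2, an S6 kinase at 0.33 ± 0.10, was named after its values were seen. POLR1C, a subunit of RNA polymerases I and III, read 1452, 1359 and 1409 in control and 1091, 1126 and 1065 in knockdown, a log2 fold change of -0.35 ± 0.09 (adjusted p = 0.602 by limma). TAF1D, a subunit of the polymerase I selectivity factor, read 555.3, 430.9 and 324.4 in control and 640.5, 660.6 and 700.4 in knockdown, a log2 fold change of 0.59 ± 0.17 (adjusted p = 0.645 by limma). Both kept their groups apart, in opposite directions. In this list the groups did not overlap for 2 genes higher in knockdown (TAF1D and RPS6KB2), against 6.68% of all genes. They did not overlap for 2 lower ones (POLR1C and POLR1D), against 6.29%.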

How the data were processed

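The values used are intensities, 1 per probe set and array, as the authors deposited them. They are on a linear scale, and each array has a trimmed mean of 500.1 when 2% of its values are left out at either end. The submitters' processing notes name RMA, which gives log2 values with equal distributions, and this does not describe these intensities; the sources used here do not give the scanner software or the background correction. The platform annotation named the probe sets, and symbols were updated through gene identifiers (41037 of 41091 matched). A gene was represented by the probe set of highest mean among those naming it alone.

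Log2(intensity + 50) was fitted with lmFit and eBayes in limma 3.58.1 (R 4.3.3) over all 19775 genes, with Benjamini-Hochberg adjustment and a threshold of 0.05, and likewise over 41091 probe sets. The code was tested on simulated data. The files hold no detection or saturation flags, and 6 arrays limit the precision. The members, gene lists and rules were chosen with earlier results of these data known. Members named with values were the 5 highest and lowest fold changes, the 5 brightest and dimmest, members whose groups did not overlap at an unadjusted p under 0.05, members with differing probe sets, members whose deviations correlate negatively with the rest, the stalk proteins and the paralog pairs, with 2 genes of each related list by smallest p. The RPS19 probe set of largest fold change was singled out after its values were seen. Alternatives covered the offset, scaling, probe set choice, dim-gene filter, eBayes options, array weights, a replicate block and each array left out. Within-group deviations of same-numbered arrays correlated at -0.007, 0.014 and -0.016 over all genes. Over genes at or above the median gene they correlated at -0.009, 0.087 and -0.069. These values show little shared movement, and they cannot tell whether same-numbered samples were handled together.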

Additional observations from a re-analysis of the deposited data

How the results depend on the processing

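No ribosomal protein gene was called by limma under any alternative, with smallest adjusted p-values from 0.457 to 1.00, and the count of 0 stands beside 2 members at an unadjusted p under 0.05. The replicate block, taking the titles' numbers as a block, left 0 called by limma (smallest adjusted p 0.775). It left 78.6% of the members above 0 and a median of 0.03, and it changed no other call. Whether the numbers pair the arrays is not known.

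The direction of the list did not hold. The share of members above 0, 78.6% as reported, was 35.7% after quantile normalization, 46.4% with arrays centred on the median gene, 19.6% with array weights (knockdown replicate 1 received 0.462), 44.6% with arrays centred on the median member and 7.14% without both arrays numbered 1, the last pair of settings chosen after seeing the data. Leaving out 1 array at a time gave 7.14% to 91.1%. The median log2 fold change was 0.03, between -0.10 and 0.11 with 1 array left out, and -0.21 without both arrays numbered 1. Centring on the median gene moved the median of all genes to -0.03 and centring on the median member also to -0.03.

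Among the members named, many signs turned, also for RPS15A and RPL37A, the highest of the bright members, and the cause was not tested. Quantile normalization gave -0.013 for RPL31, -0.035 for RPL39, -0.025 for RPS23, -0.0034 for RPS24 and -0.0067 for RPS27. Centring on the median gene gave -0.0043 for RPL39 and -0.0051 for RPS23. Centring on the median member gave -0.0015 for RPL31, -0.0067 for RPL39 and -0.0075 for RPS23. Averaging a gene's probe sets gave -0.030 for RPL31, -0.065 for RPS23 and 0.17 for NOP16. Array weights gave -0.051 for RPL31, -0.048 for RPL39, -0.026 for RPLP1, -0.065 for RPS19, -0.042 for RPS23, -0.052 for RPS24, -0.039 for RPS27 and -0.0053 for RPS6. Without both arrays numbered 1 the values were -0.15 for RPL3, -0.23 for RPL31, -0.22 for RPL37A, -0.24 for RPL39, -0.22 for RPLP1, -0.18 for RPS15A, -0.23 for RPS19, -0.24 for RPS23, -0.29 for RPS24, -0.25 for RPS27 and -0.19 for RPS6. There VAMP7, at -3.69, was the only named gene to lose its call, and limma called no gene at all (1370 at an unadjusted p under 0.05).

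With 1 array left out the values ran from -0.24 to 0.0013 for RPL27A, -0.044 to 0.16 for RPL3, -0.13 to 0.12 for RPL31, -0.12 to 0.30 for RPL37A, -0.12 to 0.12 for RPL39, -0.12 to 0.17 for RPLP1, -0.044 to 0.30 for RPS15A, -0.15 to 0.14 for RPS19, -0.11 to 0.12 for RPS23, -0.15 to 0.15 for RPS24, -0.12 to 0.16 for RPS27, -0.081 to 0.15 for RPS6 and -0.16 to 0.043 for RPS9. The lowest value came without knockdown replicate 1 for all of these except RPS9. RPL39L, RPS27L, RPLP2, RPL36A, RPL27, RPL36 and RPL10L kept their sign in every setting run.

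Limits: 3 arrays a group, bright probe sets whose error between arrays exceeds that of other genes, and dim ones whose target transcripts are unknown here.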
